A study of Mus musculus with 15 samples.

Results

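The mouse miRNAs miR-221 and miR-222 were followed through both deposited tables of a study of pancreatic cell lines. The pair was chosen because its levels in untreated αTC1-6 and βTC1 at 24 h differed in the same direction, so the contrast between the lines is described below without a test. Assays were picked by name, any arm included, and 2 of the 584 miRNA assays qualified: mmu-miR-221 and mmu-miR-222, with 1 assay each. Each measures the arm from the 3′ side of its hairpin.

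αTC1-6 is a line from a mouse glucagonoma, used as a model of glucagon-secreting α cells, and βTC1 is a line from a mouse insulinoma, used as a model of insulin-secreting β cells. MiRNA levels were measured by quantitative PCR on TaqMan low density arrays, microfluidic cards with 1 assay per well, in 15 samples forming 5 groups of 3. They were untreated αTC1-6 at 24 h, αTC1-6 at 24 h post treatment (PT) with cytokines, untreated αTC1-6 at 48 h, αTC1-6 at 48 h PT, and untreated βTC1 at 24 h. The cocktail held the inflammatory cytokines IL-1β (50 IU/ml), IFN-γ (1000 IU/ml) and TNF-α (1000 IU/ml). No treated βTC1 was on the arrays, and each cell type stands on a single tumour line. The methods describe the replicates as independent biological ones, and the labels number them.

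MiRNAs are short RNAs that pair with messenger RNAs, mainly through the seed at bases 2 to 8, and lower the output of those messengers. MiR-221 and miR-222 are processed from the same primary transcript, share their seed, and are best known for repressing Cdkn1b, which encodes the cell cycle inhibitor p27Kip1, and the receptor tyrosine kinase gene Kit. They are abundant in endothelium and vascular smooth muscle, and their transcription has been linked to NF-kB and AP-1, factors through which inflammatory cytokines act.

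The mature sequences are shown because the seed they share defines the family, and the remaining bases are what allows separate assays to tell the members apart. They are RefSeq sequences of build GRCm38.p6, 5′ to 3′, with the seed in capitals. MiR-1928, from chromosome 1 and not analysed here, is the other mature miRNA with this seed among the 1738 listed.
miR-221: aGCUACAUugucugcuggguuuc
miR-222: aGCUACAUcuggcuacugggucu
miR-1928: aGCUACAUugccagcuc
The first 8 bases of miR-221 and miR-222 were the same, and 11 of their 23 positions matched without gaps. MiR-221 lies at chrX:19146307-19146329 and miR-222 at chrX:19146901-19146923, both on the minus strand.

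The hairpins are shown to place each measured arm, here in capitals. That of miR-221 spans chrX:19146294-19146388 and that of miR-222 spans chrX:19146893-19146971, with 504 bases between them. Of the other 84 hairpins on the X chromosome, the nearest, Mir5617, was 1716155 bases away, so the pair stands apart from the large miRNA clusters of that chromosome.
miR-221 hairpin: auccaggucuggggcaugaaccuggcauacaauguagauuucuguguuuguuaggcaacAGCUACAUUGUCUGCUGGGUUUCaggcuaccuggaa
miR-222 hairpin: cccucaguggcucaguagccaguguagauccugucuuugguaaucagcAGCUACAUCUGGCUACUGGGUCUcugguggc

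A Ct is the cycle at which a well crosses the detection threshold, so a lower Ct means more RNA and 1 cycle is 1 unit on the log2 scale. Wells with no Ct are called undetermined and were set to a Ct of 40. ΔCt is the Ct minus that of miR-26a, the reference of the deposited values, which lay between 16.97 and 18.98 cycles in the 15 samples. The deposited tables differ in the wells they call undetermined. On card A, which carries both assays, 59 to 85 miRNA wells of each 24 h sample were undetermined in the normalized table and had a Ct in the non-normalized one, against 0 or 1 well of each 48 h sample. A further 0 to 43 such wells of each sample were blank in the normalized table, and neither assay was among them. MiR-375, among the most abundant islet miRNAs, had a Ct in all 15 samples, with a median of 14.98 in αTC1-6 and 13.94 in βTC1.

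MiR-222 was detected in every sample and was far higher in βTC1 than in any αTC1-6 sample. In untreated βTC1 its Ct was 21.95, 22.95 and 22.92 in replicates 1, 2 and 3. In untreated αTC1-6 at 24 h it was 33.99, 31.74 and 31.96. The 3 βTC1 samples lay between 21.95 and 22.95, well below the αTC1-6 samples in cycles, and the groups did not overlap.

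As ΔCt, miR-222 was 3.57, 4.22 and 5.39 in βTC1 (mean 4.39 ± 0.922, SD, n = 3). In untreated αTC1-6 at 24 h it was 15.01, 14.19 and 14.27 (mean 14.49 ± 0.451, SD, n = 3). The difference was 10.10 on the log2 scale, which is 1096-fold, with a pooled SD of 0.726. The lowest βTC1 level exceeded the highest αTC1-6 level by 8.80 on that scale. A separation of this kind towards βTC1 was seen for 25.5% of the 326 assays with a Ct in all 6 samples. Over the 480 assays tested between the lines by limma, 29.6% were called at an adjusted p (Benjamini-Hochberg) under 0.05 and 17.7% were called higher in βTC1; this contrast chose the pair, so nothing is read from its share. By size, miR-222 ranked 27 of 480 towards βTC1, and 2 of the 326 assays with a Ct in all 6 samples.

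MiR-221 was detected in every βTC1 sample, with a Ct of 23.565, 25.004 and 24.358. In the normalized table it was undetermined in all 3 untreated αTC1-6 samples at 24 h, all 3 treated samples at 24 h and all 3 untreated samples at 48 h. That table thus reads as presence in βTC1 and absence in untreated αTC1-6.

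The non-normalized table did not bear out that absence at 24 h. It held a miR-221 Ct of 31.16 in replicate 2 and 29.26 in replicate 3 of untreated αTC1-6, and a Ct of 35.29 in replicate 3 of treated αTC1-6. Replicate 1 of the untreated samples and replicates 1 and 2 of the treated ones were undetermined there too. At 48 h the untreated samples were undetermined in both tables. Detection of miR-221 in αTC1-6 was thus irregular among replicates of the same group.

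The ΔCt of miR-221 in βTC1 was 5.18, 6.27 and 6.82 (mean 6.09 ± 0.834, SD, n = 3). Against untreated αTC1-6 at 48 h, undetermined in both tables, the difference was 15.94 on the log2 scale, a lower bound so far as an undetermined well stands for a Ct of 40 or later. Against the samples at 24 h it was 15.84 in the normalized table and 9.31 in the non-normalized table, so its size depended on which table was read. MiR-221 ranked 7 of 480 towards βTC1 in the normalized table.

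**Figure D1:**
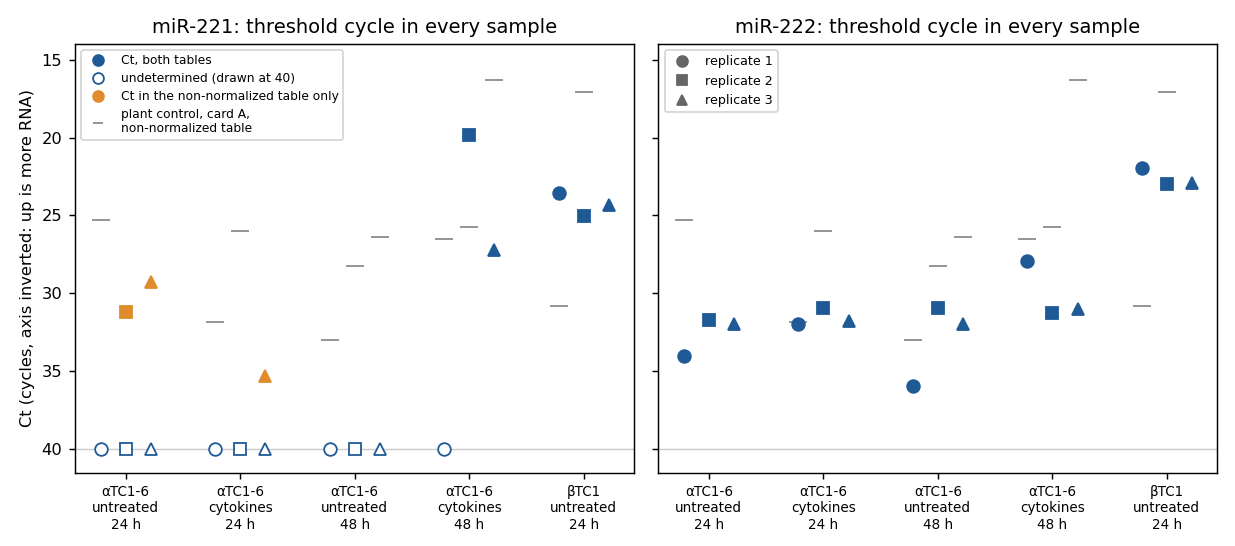
Ct of miR-221 and miR-222 in each of the 15 samples, by group, on an inverted axis in cycles. Filled symbols are wells with a Ct in both tables, and open symbols are undetermined wells drawn at 40. Orange symbols are the 3 miR-221 wells with a Ct in the non-normalized table only. Grey dashes are the plant control ath-miR159a of card A in that table, which gives the same control values for both cards. MiR-222 has a Ct in all 15 samples and the βTC1 samples lie lowest in cycles, between 21.95 and 22.95.

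**Figure D2:**
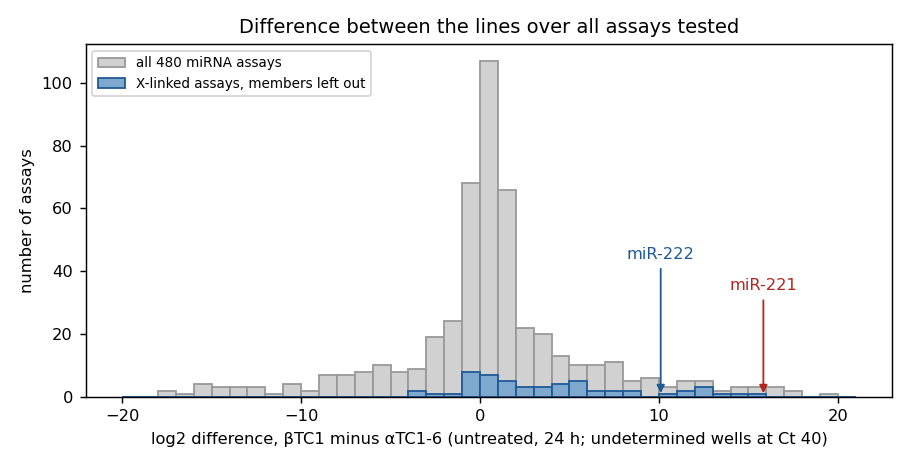
Log2 difference between untreated βTC1 and untreated αTC1-6 at 24 h for the 480 miRNA assays tested, in bins of 1 unit, with the X-linked assays (miR-221 and miR-222 left out) in blue. Arrows mark miR-222 at 10.10 and miR-221 at 15.84, where undetermined wells count as a Ct of 40.

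Few assays had the detection pattern of miR-221. By the normalized table, 8 miRNAs were detected in each of the 3 βTC1 samples but in none of the 6 untreated αTC1-6 samples: miR-10b, miR-216a, miR-217, miR-218-2*, miR-221, miR-542-5p, miR-881 and miR-883a-5p. By the non-normalized table, 3 had it (miR-10b, miR-218-2* and miR-542-5p), and miR-221 was not among them. At 24 h, 27 miRNAs were detected in each βTC1 sample but in no untreated αTC1-6 sample. Of these, 7 had a Ct in all 3 untreated αTC1-6 samples at 48 h and 8 had none there. MiR-221 was thus among those undetermined at both times in the normalized table, while the non-normalized one gave it a Ct in 2 of 3 untreated samples of 24 h.

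Within βTC1 the Ct gap between the members was similar in the 3 samples, and other pairs of assays were not compared. The Ct of miR-221 exceeded that of miR-222 by 1.61, 2.05 and 1.43 cycles (mean 1.70 ± 0.317, SD, n = 3). Separate assays are not calibrated against each other, so this gap is no ratio of molecules, but its spread within a line can be compared because the reference RNA cancels out. In αTC1-6 the gap was anything but steady. At 48 h PT it was -11.4 cycles in replicate 2 and -3.74 cycles in replicate 3. In the non-normalized table at 24 h it was -0.58 and -2.70 cycles in untreated replicates 2 and 3, and 3.50 cycles in treated replicate 3. No αTC1-6 group had a Ct for both assays in all 3 samples, the condition set for the test of the gap between conditions, so no such test was run.

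A plant miRNA on card A, ath-miR159a, has no counterpart in mouse cells and serves as a negative control. In the normalized table it had a Ct in 0 of the 9 samples of 24 h and in all 6 samples of 48 h. There its Ct was below that of miR-222 in 6 of 6 samples: 33.0, 28.2 and 26.4 in untreated αTC1-6 and 26.5, 25.8 and 16.3 at 48 h PT. In the non-normalized table it was below that of miR-222 in 3 of the 6 αTC1-6 samples of 24 h. It was also below in 1 of 3 βTC1 samples, with a Ct of 17.1 in replicate 2. That table gives the same control values for both cards, so at 24 h their place on card A is not certain. The αTC1-6 levels of miR-222 at 48 h thus lay in a range that a control without a target also reached, and its part in them was not tested.

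Across the 12 αTC1-6 samples the ΔCt of miR-222 ran from 9.44 to 16.96 with a median of 13.9. Ordered from high to low level, βTC1 came first (4.39), followed by αTC1-6 at 48 h PT (12.17 ± 2.37), at 24 h PT (13.30 ± 0.464), untreated at 24 h (14.49 ± 0.451) and untreated at 48 h (14.99 ± 1.71), each the mean ΔCt with its SD (n = 3). The nearest αTC1-6 sample lay 4.05 below the lowest βTC1 sample on the log2 scale. The samples of 48 h PT and 24 h PT overlapped, as did the untreated samples of both times. Between 24 h PT and the untreated samples of 24 h there was no overlap.

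Whether inflammatory cytokines change these miRNAs in αTC1-6 was asked at 24 and 48 h. MiR-222 was higher with cytokines in the mean at both times, by 2.29-fold at 24 h and 7.03-fold at 48 h, and neither difference passed the limma test. The untreated samples of 24 h also took part in the choice of the pair, so the comparison at 24 h is not independent of it, whereas that at 48 h shares no sample with the contrast of the lines at 24 h, though its values were known when the pair was chosen.

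At 24 h PT the ΔCt of miR-222 was 13.06, 13 and 13.83, against 15.01, 14.19 and 14.27 in untreated cells. All treated samples were above all untreated samples in level. The difference was 1.19 on the log2 scale (SE 0.429, 95% CI 0.11 to 2.27), with an adjusted p of 0.908 by limma and Benjamini-Hochberg. The unadjusted p of limma was 0.0360, and an exact two-sided permutation test gave 0.1, the smallest p that 3 against 3 samples allow. Samples of the same number, which deviated together, differed by 1.95, 1.19 and 0.44, all upwards, and an exact sign-flip test over these 3 pairs gave p = 0.25, the smallest it can give. Over the 445 assays tested, 0.225% were called at an adjusted p under 0.05, and 3.15% were higher at an unadjusted p under 0.05. Among the 329 assays with a Ct in all 6 samples, treated samples were above all untreated ones for 5.78%.

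The separation of all treated from all untreated samples at 24 h moved with the reference, whereas the direction of the mean did not. The separation was kept when values were centred on each sample's median, whereas with U6 and small nucleolar RNAs as the reference the log2 difference fell to 0.60 and 0 of 3 treated samples were above all untreated ones. Without normalization 1 of 3 treated samples was above all untreated ones. Same-numbered samples still differed upwards in 3 of 3 pairs without normalization (2.06, 0.78 and 0.17) and in 2 of 3 with U6 and small nucleolar RNAs (-0.01, 1.14 and 0.69).

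At 48 h PT the ΔCt of miR-222 was 9.44, 13.54 and 13.54, against 16.96, 13.97 and 14.02 in untreated cells. The groups did not overlap, but replicate 1 was extreme in both, highest in level among treated samples and lowest among untreated ones. Same-numbered samples differed by 7.52 in replicate 1, 0.43 in replicate 2 and 0.49 in replicate 3 on the log2 scale. Of the 284 card A assays with a Ct in both samples of replicate 1, 2 (miR-222 included) differed by as much upwards.

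The mean difference at 48 h was 2.81 on the log2 scale (SE 1.52, 95% CI -1.07 to 6.69), with an adjusted p of 0.684 by limma and Benjamini-Hochberg. The exact permutation p was 0.1, the smallest possible, and the exact sign-flip p over pairs was 0.25, again the smallest. Without replicate 1 of the treated samples the difference was 1.44, and without replicate 1 of the untreated samples it was 1.83. Over the 534 assays tested, 0.562% were called at an adjusted p under 0.05, and the median difference of all assays was -0.51. Treated samples were above all untreated ones for 1.71% of the 410 assays with a Ct in all 6 samples. Without normalization 1 of 3 treated samples was above all untreated ones. Same-numbered samples then differed by 8.01, -0.31 and 0.99, so replicate 2 turned downwards. With U6 and small nucleolar RNAs as the reference they differed by 7.69, 1.01 and 0.74.

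**Figure D3:**
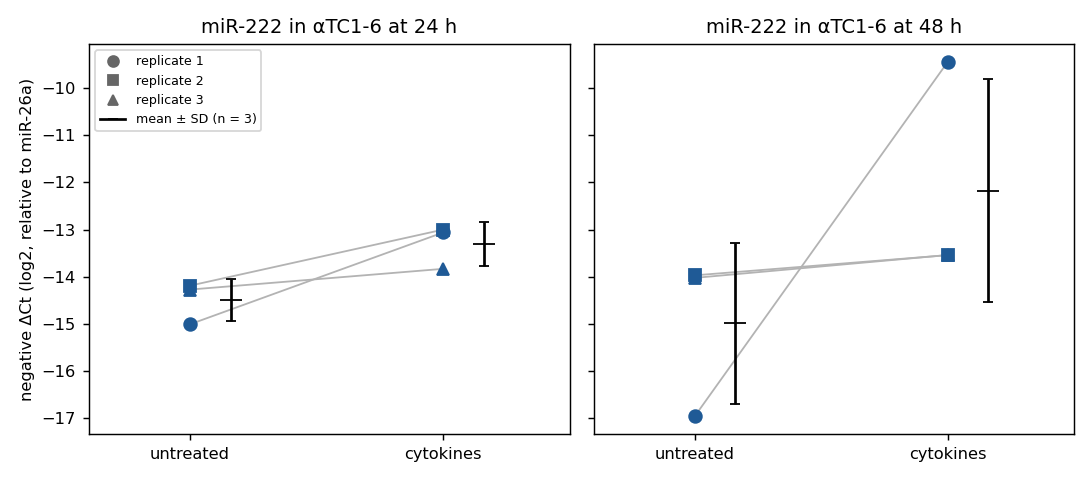
Negative ΔCt of miR-222 (log2 scale, relative to miR-26a) in untreated and cytokine-treated αTC1-6 at 24 and 48 h, with samples of the same replicate number joined and the mean ± SD (n = 3) beside them. At 48 h replicates 2 and 3 differ by 0.43 and 0.49, while replicate 1 differs by 7.52.

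The spread of miR-222 was set beside that of assays at a like level. The comparison took card A assays with a Ct in all 3 samples of a group, over all groups. Their median SD of ΔCt was 0.528 where the mean Ct was under 25, 0.594 between 25 and 30, and 1.01 from 30 upwards. In that last range the middle of the distribution ran from 0.568 (lower quartile) to 1.68 (upper quartile). The βTC1 group of miR-222 lay in the first of these ranges, and its αTC1-6 groups in the last. Both αTC1-6 groups of 24 h (SD 0.451 and 0.464) were below the lower quartile, and both of 48 h (1.71 and 2.37) were above the upper one. Ranges were likewise set beside card A assays with a Ct in all 3 samples of the group. The Ct range of miR-222 in untreated αTC1-6 at 48 h, 4.99 cycles, was reached by 23 of 274. Its range at 48 h PT, 3.33 cycles, was reached by 38 of 287.

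The difference between the cytokine effects of 48 and 24 h was 1.62 on the log2 scale (SE 1.63, adjusted p = 0.992, limma with Benjamini-Hochberg), with 0.21% of 477 assays called. In untreated αTC1-6 the level of miR-222 at 48 h minus that at 24 h was -0.49 (SE 0.924, adjusted p = 0.919, limma with Benjamini-Hochberg), where 5.93% of 489 assays were called. That value turned to 0.49 without replicate 1 of the untreated samples of 48 h, and the exact permutation p was 1.0. The untreated samples of 24 h are again those that took part in the choice of the pair.

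MiR-221 showed its most irregular values at 48 h PT. It was undetermined in replicate 1, had a Ct of 19.85 in replicate 2 (ΔCt 2.14) and a Ct of 27.24 in replicate 3 (ΔCt 9.79), in both tables alike. The value of replicate 2 was a higher level than in any βTC1 sample, while replicate 1 gave no signal. With the undetermined well at 40 this is a range of 20.1 cycles, which 13 of 362 card A assays with a Ct in that group reached. In replicates 1, 2 and 3 the plant control had a Ct of 26.5, 25.8 and 16.3, so it was above the Ct of miR-221 in replicate 2 only.

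The members did not move alike in that group: replicate 1 had the highest miR-222 of all αTC1-6 samples and an undetermined miR-221, and replicate 2 had the highest miR-221 with a miR-222 at a ΔCt of 13.54. With undetermined wells at 40, the mean of miR-221 was 10.88 higher on the log2 scale at 48 h PT than in untreated cells, ranging from 6.38 to 16.07 as each sample was left out. In the normalized table miR-221 had a Ct in under 3 of the 6 samples of each αTC1-6 comparison and so entered no test. Without that filter the difference at 48 h had an adjusted p of 0.704 (SE 5.06, limma with Benjamini-Hochberg). In the non-normalized table, which gave a Ct to 3 of the 6 αTC1-6 samples at 24 h, miR-221 stood 4.76 lower with cytokines at 24 h, a log2 difference of -4.76 (SE 2.84, adjusted p = 0.989, limma), in the direction opposite to that of 48 h.

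Among miRNAs that respond to NF-kB or AP-1, a list of 11 without the pair of which 10 were on the cards and 9 were tested, none was called at 24 h PT by limma, beside 0.225% of all assays, and 3 were higher at an unadjusted p under 0.05, beside 3.15% of all. MiR-146a, an NF-kB target that restrains Toll-like and IL-1 receptor signalling, stood 3.30 above untreated cells on the log2 scale (adjusted p = 0.0985, limma). MiR-125b-5p and miR-34a, the latter a p53 target, stood 1.25 and 1.05 above (adjusted p = 0.650 for each). The median of the list was 0.20, beside -0.15 for all 445 assays. At 48 h PT 1 of the 9 was called: miR-146a rose by 3.82 (adjusted p = 0.00458, limma), beside 0.562% of all assays called. With the replicate number as a block, 0 of all assays were called at 48 h, miR-146a included. Without that block the list's median at 48 h PT was 0.96, beside -0.51 for all 534 assays.

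With miR-26a as the reference, miR-222 was 1 of 5 miRNAs whose treated samples lay above all untreated samples at both times. The others were miR-125b-5p, miR-146a, miR-203 and miR-34a. That separation was seen for 19 of 329 assays (5.78%) at 24 h and 7 of 410 (1.71%) at 48 h, of which the 5 make 26.3% and 71.4%. For miR-222 it was lost without normalization at both times, and with U6 and small nucleolar RNAs at 24 h. MiR-203, known from epidermal differentiation, stood 2.15 above untreated cells at 24 h (adjusted p = 0.648, limma) and 2.54 above at 48 h (adjusted p = 0.207). Of these 5, miR-146a at 48 h passed the test, and the fold of miR-222 at 24 h was in the range of those of miR-125b-5p and miR-34a.

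The position of the pair on the X chromosome was shared by many miRNAs that were higher in βTC1. Of 516 mouse assays, 500 were matched to RefSeq genes, and 71 had all their genes on X. Without miR-221 and miR-222, 54 X-linked assays were tested between the lines: 26 were higher in βTC1 and 0 in αTC1-6 (limma, adjusted p under 0.05), with a median log2 difference of αTC1-6 minus βTC1 of -2.75. Of the 321 autosomal assays, 39 were higher in βTC1 and 52 in αTC1-6, with a median of -0.32. The shares higher in βTC1 were thus 48.1% on X and 12.1% on the autosomes, beside the 17.7% over all assays. In the other direction 11.9% of all assays were higher in αTC1-6.

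The imbalance was seen in the other counts too. With a Ct in all 6 samples, 12 of 31 X-linked and 22 of 217 autosomal assays were higher in βTC1, and by the non-normalized table, 16 of 62 and 25 of 356 were. The X-linked miRNAs with the smallest adjusted p were miR-224, miR-503, miR-743a, miR-470 and miR-883a-3p, with log2 differences of αTC1-6 minus βTC1 between -15.74 and -11.51, each with a Ct in 3 of the 6 samples. Their size rests on αTC1-6 wells of 24 h set to 40, and in untreated αTC1-6 miR-503 was 11.59 higher at 48 h than at 24 h (adjusted p = 0.000141, limma). Many X-linked miRNAs sit in clusters transcribed together, so their calls are not independent of each other. Over 15 autosomes with at least 10 assays the share higher in βTC1 ran from 0 to 37.9%.

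With cytokines few X-linked miRNAs were called. At 24 h PT 0 of 40 tested members were called by limma (1 higher at an unadjusted p under 0.05), beside 0.225% of all assays. At 48 h PT 2 of 62 were called, among 3 of all 534 assays (0.562%): miR-351 (11.32 higher on the log2 scale) and miR-448 (14.68 higher), both with a Ct in 3 of 6 samples and neither called with the replicate block.

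Several vascular and mesenchymal miRNAs, the company in which the pair is best known, were also higher in βTC1. All 10 of the list were on the cards, and 7 were tested between the lines. Of these, 5 were called higher in βTC1 and none in αTC1-6 (limma, adjusted p under 0.05). Their median log2 difference of αTC1-6 minus βTC1, over the 7 tested, was -2.39. Over all 480 assays 17.7% were higher in βTC1 and 11.9% in αTC1-6, with a median of -0.52. Called higher in βTC1 were miR-10b (-16.03, with a Ct in 3 of the 6 samples) and miR-218 (-7.50). So were both arms of the endothelial miR-126 (miR-126-3p and miR-126-5p, -2.39 each) and the smooth muscle miR-145 (-1.90). MiR-143, miR-214 and miR-199a-5p were not tested in this contrast. In the normalized table miR-143 had a Ct in 8 αTC1-6 and 0 βTC1 samples, and miR-214 in 4 and 0. The non-normalized table gave them a Ct in 14 and 13 of all 15 samples, some of βTC1 included. With cytokines 0 of 6 tested were called by limma at 24 h and 0 of 9 at 48 h, beside 0.225% and 0.562% of all assays, and 0 had an unadjusted p under 0.05 at either time.

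The summed level of other cell types' markers was higher in βTC1, though not every marker was. Summed over 15 such miRNAs of muscle, liver, blood, endothelium and fibroblasts, their relative quantity was 0.519 to 2.10% of miR-26a in the αTC1-6 samples and 4.60 to 6.71% in βTC1. On this linear scale the markers with the lowest Ct weigh most. MiR-126-3p had the lowest median Ct of the 15 in both lines, 25.49 in αTC1-6 and 22.96 in βTC1. Of the 15, 8 had a Ct in all 15 samples and all had a Ct in at least 1. By limma 5 of the 10 tested were called higher in βTC1, beside 17.7% of all assays. The median log2 difference of αTC1-6 minus βTC1 of the 10 was -1.55. Others did not follow: the median Ct in αTC1-6 and βTC1 was 27.87 and 27.94 for miR-150 and 34.82 and 34.98 for miR-451. By the normalized table, miR-143 was detected in 8 αTC1-6 and 0 βTC1 samples, and miR-214 in 4 and 0. By the non-normalized table they had a Ct in 14 and 13 of the 15 samples, so their absence from βTC1 depended on the table. The list shares 6 miRNAs with the vascular and mesenchymal one. The defining islet miRNAs, summed over 10, stood at 357 to 1698% in αTC1-6 and 1804 to 2183% in βTC1. MiR-375 had the lowest median Ct of these (14.98 and 13.94). Only miR-7a (20.93 and 22.10) and miR-200a (35.77 and 40) had a lower median Ct in αTC1-6. For miR-200a this rests on undetermined wells: 6 αTC1-6 samples and 1 βTC1 sample had a Ct in the normalized table. In the non-normalized table all 15 samples had one. Of 8 islet miRNAs tested, 3 were called higher in βTC1 and 0 in αTC1-6, with a median log2 difference of -2.29. Higher levels in βTC1 were thus not particular to markers of other cell types. The part of other cells in the level of miR-221 and miR-222 was not tested, and fewer cells of a type and less RNA per cell cannot be told apart in bulk samples.

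The likeness of other assays to miR-222 was measured over the 15 samples. On values centred on each sample's median, and over 277 other assays with a Ct in all 15 samples, the highest Pearson r was that of miR-194 (0.935), followed by miR-218 (0.928), miR-19b of the miR-17 to miR-92 cluster (0.928), X-linked miR-676* (0.920) and miR-365 (0.919). The median r of all these assays was -0.007, and 7 exceeded 0.9. By Spearman rank correlation the named assays stood lower, at 0.79, 0.70, 0.67, 0.75 and 0.76 in the order given. The contrast of the lines, which chose the pair, enters these values. The samples also share line, time and run, so the values are descriptions.

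The height of the step differed among them: 2.85 for miR-194, 6.98 for miR-218, 11.88 for miR-19b, 4.35 for miR-676* and 4.03 for miR-365, beside 8.79 for miR-222 on the same centred log2 scale, βTC1 minus all αTC1-6 samples. On ΔCt the nearest were miR-19b, miR-218, miR-193b (r = 0.926, with a ΔCt step of 0.92), miR-365 and miR-125b-5p. Their Spearman rank correlations ran from 0.31 for miR-365 to 0.91 for miR-125b-5p. Within the 12 αTC1-6 samples a different set came closest: miR-147 (r = 0.782), miR-125b-5p (0.703), miR-21* (0.696), miR-203 (0.691) and miR-30a (0.677). By Spearman rank correlation these miRNAs stood at 0.51, 0.87, 0.72, 0.87 and 0.66, in the same order. Among these, miR-125b-5p and miR-203 also belonged to the 5 miRNAs whose treated samples lay above all untreated ones at both times. That separation and these r values come from the same samples, so the overlap is no separate evidence.

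**Figure D4:**
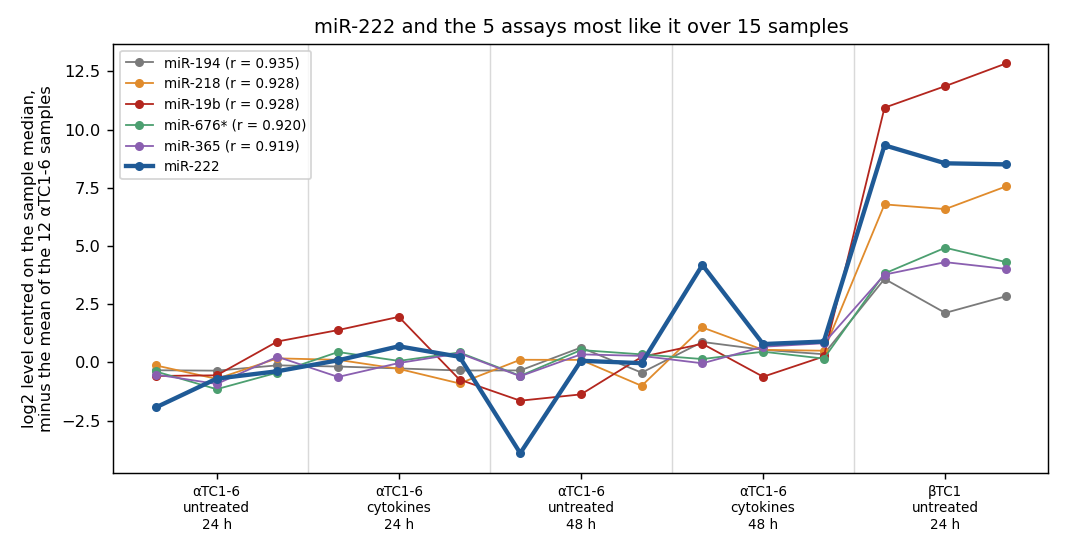
Levels of miR-222 and the 5 assays most like it in the 15 samples, in log2 units centred on each sample's median, with the mean of the 12 αTC1-6 samples subtracted and replicates 1 to 3 from left to right in each group. All 6 step up in βTC1, by 2.85 (miR-194) to 11.88 (miR-19b), and of these miR-222 alone departs widely in replicate 1 of both 48 h groups.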

How the data were processed

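MiR-221, miR-222 and the lists were chosen with earlier results of these data known. The authors quantified Ct values with Real-Time Statminer and deposited 2 usable tables: Ct values per well (non-normalized), and log2-scale ΔCt values with relative quantities (a ratio to the reference, as a linear fold). The methods name several reference genes chosen with Genorm and DataAssist, but the deposited ΔCt values are 0 for miR-26a in every sample. Another deposited table holds the authors' ratios between groups and was not used. Ct of the normalized table was recovered as ΔCt plus the Ct of miR-26a. Undetermined wells were set to 40, and duplicate wells were averaged. Array number limits the precision.

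Negative ΔCt was tested with limma 3.58.1 (R 4.3.3; lmFit, eBayes, two-sided) on the groups compared, over assays with a Ct in at least 3 of 6 samples (at least 6 of 12 for the difference between times), with Benjamini-Hochberg adjustment within each card at 0.05. The fit was tested on simulated data. Named miRNAs were the pair, the 5 assays most like miR-222 under each measure, and per list up to 5 members with an adjusted p under 0.05, otherwise the 3 with the lowest p. MiR-203 and the assays sharing a detection pattern were named after their values were seen. Same-numbered samples deviated together in the cytokine comparisons (r of 0.337, 0.355 and 0.539 at 24 h and 0.528, 0.574 and 0.621 at 48 h), so numbers pair samples there, though not for time or line. Alternatives covered the reference, the table, undetermined wells, filters, samples fitted, a replicate block, the prior, the adjustment and each replicate left out.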

Additional observations from a re-analysis of the deposited data

Results flagged for a closer look

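Wells of miR-221 stood out as signal in the non-normalized table that the comparisons did not use. In untreated αTC1-6 at 24 h the Ct was 31.16 in replicate 2 and 29.26 in replicate 3, and at 24 h PT it was 35.29 in replicate 3. The plant control ath-miR159a was undetermined in these 3 samples in that table. In the other 3 αTC1-6 samples of 24 h the plant control had a Ct there and miR-221 had none. Those control values are the same for both cards, so their place on card A is not certain. The normalized table calls all 6 wells of miR-221 undetermined.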

How the results depend on the processing

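The miR-222 comparisons with cytokines and between the cytokine effects of both times kept their direction and stayed above an adjusted p of 0.05 under every alternative run: 0.432 to 0.993 at 24 h, 0.465 to 0.999 at 48 h and 0.870 to 1.000 for the difference between times (limma, Benjamini-Hochberg). Leaving out each replicate gave 0.93 to 1.46 at 24 h, 1.44 to 3.50 at 48 h and 0.25 to 2.30 for their difference. The difference between 48 and 24 h in untreated cells ran from -1.0 to 0.49 and turned to 0.49 without replicate 1 of the untreated samples of 48 h. With the replicate block miR-222 stayed uncalled (adjusted p of 0.432 and 0.465 with cytokines at 24 and 48 h), while the counts of assays called with cytokines fell to 0 at both times.

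The difference of miR-221 between αTC1-6 and βTC1 was -9.31 in the non-normalized table and -10.84 with Ct above 35 set to 35, beside -15.84, and -16.29 to -15.38 as each replicate was left out. That of miR-222 stayed between -10.60 and -9.69. The mean of miR-221 at 48 h PT minus untreated was 7.55 to 11.32 under other settings and 6.38 to 16.07 as each replicate was left out, with an adjusted p of 0.704 by limma without the filter. At 24 h PT its value was 0.19 with undetermined wells at 40 (adjusted p = 0.944 without the filter) and -4.76 in the non-normalized table (adjusted p = 0.989). Without the filter the difference between times was 10.69 (adjusted p = 0.990) and that between 48 and 24 h untreated was -0.11 (adjusted p = 0.966). The number of samples with a miR-221 Ct in the non-normalized table was 2 of 3 in untreated αTC1-6 at 24 h, also under a Ct of 35, and 1 of 3 at 24 h PT. Chosen after seeing the data, other references left 1 (no normalization) or 0 (U6 and small nucleolar RNAs) treated samples above all untreated ones at 24 h and 1 (no normalization) at 48 h. X-linked assays higher in βTC1 numbered 16 in the non-normalized table and 12 with a Ct in every sample, beside 26.

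At 24 h PT the count of assays called, 1, was 0 in the non-normalized table, with undetermined wells as missing, with Ct above 35 set to 35, with a Ct in every sample and with a mean-dependent prior variance, 2 in a fit over all 15 samples, and 0 to 2 as each replicate was left out. At 48 h PT the count of 3 was 1 with undetermined wells as missing, 5 in the fit over all 15 samples, and 0 to 5 as each replicate was left out. Between 48 and 24 h untreated the count of 29 was 2 in the non-normalized table, 2 with undetermined wells as missing, 1 with a Ct in every sample, and 0 to 30 as each replicate was left out. The unadjusted counts over these alternatives were 11 to 47, 25 to 121 and 9 to 51. The other settings of the αTC1-6 tests gave miR-221 no test, since it stayed under the filter. The cause of these changes was not tested.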
